A study of Mus musculus with 18 samples.

Results

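The regions described here are sites of accessible chromatin at the promoters of genes whose symbol begins with Rpl or Rps followed by a digit, the naming pattern of the proteins of the cytosolic ribosome. Overlapping peaks of 18 lists (1 bp or more) were joined into regions, those with a peak in at least 2 lists were kept, and a region was counted for a gene when its midpoint lay within 1 kb, that is 1000 bp, of the transcription start site (TSS) of a curated RefSeq messenger RNA (NM transcript, mm10). Of 47338 regions in all, 12407 lay this close to an NM start, and 90 of these belonged to the pattern. The pattern matched 97 genes, of which 89 had a region and 8 had none.

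The lists came from assay for transposase-accessible chromatin with sequencing (Omni-ATAC) on lung endothelial cells (ECs) sorted from mice, with about 50000 cells per library and 1 mouse per list. The mice were FVB animals of both sexes carrying a Col1α1-GFP reporter, which all groups share, and cells that were CD31+ but lacked CD45, EpCAM and GFP were collected. Young Sham (n = 5) and Young Bleo (n = 4) mice were 2 months old, and Aged Sham (n = 4) and Aged Bleo (n = 5) mice were 18 months old. Sham mice received saline and Bleo mice 1 U/kg bleomycin into the trachea, and cells were taken at day 30. The gate removes leukocytes, epithelial cells and Col1α1-expressing cells, and the labels do not separate capillary, arterial, venous or lymphatic ECs.

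Each ribosome is built from a large and a small subunit, and nearly all of their proteins come from single genes on scattered chromosomes whose products are needed in equal amounts. Their promoters are active in every growing cell and often start transcription within a run of pyrimidines, so that their messenger RNAs begin with a terminal oligopyrimidine tract through which translation is coordinated by mTOR signalling. Binding sites of ETS factors such as GABPA, and of SP1 and YY1, are also known from these promoters. They therefore serve here as a housekeeping reference against which endothelial changes can be read.

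The promoters below are those of 4 regions with the highest enrichment, of 4 regions called between groups, and of Rpl4, which lacked a peak in part of the lists. Each runs from 80 bases before to 20 bases after the start site, 5′ to 3′ on the strand of the gene, as given by RefSeq for GRCm38.p6, the assembly of mm10. Capitals mark the ETS-type heptamer CCGGAAG on either strand and any run of 6 or more pyrimidines within 15 bases of the start. The windows lie at chr3:28805428-28805527 for Rpl22l1 (plus strand), chr3:130730318-130730417 for Rpl34 (minus), chr10:23787190-23787289 for Rps12 (minus) and chr15:5116533-5116632 for Rpl37 (plus). Those of the called regions lie at chr7:4792885-4792984 for Rpl28 (plus), chr7:118116128-118116227 for Rps15a (minus), chr17:33955646-33955745 for Rps18 (minus) and chr7:45128726-45128825 for Rpl13a (minus), and that of Rpl4 at chr9:64173307-64173406 (plus).
Rpl22l1: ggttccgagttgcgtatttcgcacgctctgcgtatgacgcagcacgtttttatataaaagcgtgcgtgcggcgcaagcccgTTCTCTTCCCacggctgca
Rpl34: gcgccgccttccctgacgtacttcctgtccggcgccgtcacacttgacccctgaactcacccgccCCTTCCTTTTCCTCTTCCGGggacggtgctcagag
Rps12: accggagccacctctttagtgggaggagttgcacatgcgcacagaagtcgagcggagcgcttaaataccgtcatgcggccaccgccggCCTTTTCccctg
Rpl37: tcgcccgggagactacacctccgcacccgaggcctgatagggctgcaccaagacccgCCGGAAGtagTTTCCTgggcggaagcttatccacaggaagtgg
Rpl28: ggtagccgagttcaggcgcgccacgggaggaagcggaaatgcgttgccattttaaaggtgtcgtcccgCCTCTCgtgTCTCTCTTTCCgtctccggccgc
Rps15a: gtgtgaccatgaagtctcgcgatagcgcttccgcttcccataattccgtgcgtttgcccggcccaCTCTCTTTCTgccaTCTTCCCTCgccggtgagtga
Rps18: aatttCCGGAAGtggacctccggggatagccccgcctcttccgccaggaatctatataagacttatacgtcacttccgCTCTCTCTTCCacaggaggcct
Rpl13a: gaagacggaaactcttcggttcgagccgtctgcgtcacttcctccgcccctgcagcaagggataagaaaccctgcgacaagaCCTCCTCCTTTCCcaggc
Rpl4: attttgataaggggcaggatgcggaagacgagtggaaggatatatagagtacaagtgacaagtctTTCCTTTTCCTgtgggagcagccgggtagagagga

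Every one of the 9 printed windows holds a pyrimidine run at the start, and 3 of them also hold the ETS-type heptamer. This is not general, since Rpl27, the next most enriched gene, and Rpl36a have no run of more than 5 pyrimidines there. Of the 97 genes, 75 had a promoter of 300 bases (250 before to 50 after the start) in the RefSeq table, and 64 of these had a start within 50 bases of the one used here and a region with a peak in all 18 lists. A pyrimidine run was found in 32 of the 64 (50%), against 26.8% of 8283 promoters of all genes chosen the same way. CCGGAAG on either strand was found in 23 (35.9%, against 21.8%), and CAGGAAG, the core bound by the endothelial ETS factor ERG, in 12 (18.8%, against 11.6%). GGGCGG, the SP1 and KLF box, stood in 41 (64.1%, against 72.6%), AAGATGGC (YY1) in 5 (7.81%, against 5.43%) and TGACGTCA (CREB and ATF) in 5 (7.81%, against 3.82%). TATAAA occurred in 5 (7.81%, against 5.64%) and GCGCATGC (NRF1) in 4 (6.25%, against 6.57%). These are matches of letters and were not tested as binding sites. The median level, on the percentile scale explained below, was 82.8 for promoters with CCGGAAG and 84.6 for those without, and 81.6 with and 84.8 without a pyrimidine run.

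Accessible chromatin was found at every canonical ribosomal protein gene. All 43 genes of the large subunit and all 30 of the small subunit had a region. So did all 11 matched genes that encode no ribosomal protein (10 genes named as S6 kinases and Rps19bp1) and 5 of 13 paralogues. The 8 genes with no region were all paralogues or retrogenes, namely Rpl10l, Rpl31-ps12, Rpl32l, Rpl37rt, Rpl39l, Rpl3l, Rps23rg1 and Rps27rt. Rpl3l is known from striated muscle and Rpl10l and Rpl39l from the testis. Of the 90 regions, 86 (95.6%) had a peak in all 18 lists, compared with 9729 of the 12407 regions near an NM start (78.4%) and 17432 of all 47338 regions (36.8%). Single lists held 86 to 90 of the 90.

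Among the regions that were not found throughout, those of Rpl4, Rps6ka6 and Rps6kl1 were each weak. Rpl4, whose protein lines the exit tunnel of the large subunit, was the only canonical gene without a region in every list. Its region (chr9:64172769-64173603, 835 bp, shared with the start of Zwilch) had a peak in 5 of 5 Young Sham, 4 of 4 Young Bleo, 4 of 4 Aged Sham and 2 of 5 Aged Bleo lists. Where a peak was present, a median of 16 fragments lay over its summit, compared with a median of 103 over all member peaks.

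A further 2 regions belong to kinases. Rps6ka6, which encodes the ribosomal S6 kinase RSK4 and lies on chromosome X, had a peak in 5 of 5 Young Sham, 4 of 4 Young Bleo, 4 of 4 Aged Sham and 1 of 5 Aged Bleo lists (chrX:111462707-111463766). Rps6kl1, a kinase-like gene, had a peak in 5 of 5 Young Sham, 4 of 4 Young Bleo, 2 of 4 Aged Sham and 3 of 5 Aged Bleo lists (chr12:85150747-85151521). Both stood at a median of at most 20 fragments at the summit where they were present.

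To ask whether presence differed between groups, the numbers of lists with and without a peak were set against each other in each region with Fisher's exact test (two-sided). Rps6ka6 was called in Aged Bleo vs Young Sham (1 of 5 lists against 5 of 5, exact p = 0.0476) and in Aged Bleo vs Aged Sham (1 of 5 against 4 of 4, exact p = 0.0476), and its adjusted p (Benjamini-Hochberg, over all regions) was 1 in both. So 1 of 90 members was called in each of these comparisons, where 3.21% and 0.885% of all 47338 regions were called. No member was called in Aged Sham vs Young Sham or in Young Bleo vs Young Sham, where 5.17% and 5.94% of all regions passed. Of the regions near an NM start, 1.52% and 1.27% passed there. In Aged Bleo vs Young Sham and Aged Bleo vs Aged Sham, 1.19% and 0.387% of those regions passed. The test could not call the 86 of 90 members that had a peak in every list, so at most 4 could be called. The counts therefore do not show whether presence changed more or less often in members than in other regions. After adjustment 0 of 47338 regions passed in any of the 4 comparisons, by the same test. The call of Rps6ka6 against Aged Sham was lost (exact p = 0.143) without any 1 of the 4 Aged Sham lists or of Aged Bleo 2, 3, 4 and 5. With equal numbers of peaks in each list its call against Young Sham was lost (exact p = 1, a difference of -0.2 in the share of lists), and with at least 50% of the region covered that against Aged Sham (exact p = 0.444, a difference of -0.25, compared with -0.8). Rpl4 gave an exact p = 0.167 in Aged Bleo vs Young Sham. The 3 Aged Bleo lists in which Rpl4 was absent, Aged Bleo 3, 4 and 5, had 57 to 76.5 fragments at the median member summit. Aged Bleo 1 and 2 had 125 and 126. Aged Sham 1 and 3, in which Rpl4 had a peak, had 68 and 77.5. The part of depth in these absences was not tested.

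The level of a region was given as the percentile of its fold enrichment within its own list (100 for the strongest peak of the list), because fold enrichments of different lists share no scale. Among regions found in all lists, the median of the mean percentile was 83.3 for the members, 80.5 for all 9729 regions near an NM start and 71.4 for all 17432 regions. Of the 86 members 51 (59.3%) stood above 80, compared with 51.1% of the regions near an NM start, and 10 (11.6%) stood below 60, compared with 17.2%. Above 90 the shares were 25.6% (22 members) and 26.6%. The members were thus more often found in all lists than other promoters, but did not gather at the very top.

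The most enriched region was that of Rpl22l1 (chr3:28805155-28805871), a paralogue of Rpl22 with known roles in development and splicing, at a mean percentile of 99.7 ± 0.178 (SD, n = 18 lists). It was followed by Rpl34 at 99.3 ± 0.402, a large subunit protein, and by Rps12 at 98.8 ± 0.583, a small subunit protein. Rpl37 stood at 98.5 ± 0.667 and Rpl27 at 98.0 ± 1.16. Rpl22l1 did not fall below 99.3 in any list, nor Rpl34 below 98.6, and the neighbours in this order overlapped over the lists. The 4 promoters of highest enrichment printed above therefore belong to genes of both subunits and to a paralogue.

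At the other end, among the regions found in all lists, stood Rpl7 at 33.7 ± 6.61, Rpl34-ps1 at 39.8 ± 16, Rpl8 at 41.4 ± 9.95 and Rpl36 at 51.6 ± 6.91. Rpl34-ps1 carries a pseudogene-type symbol, and its region lay 750.5 bp downstream of its annotated start. The region of Rpl7 (chr1:16104175-16106040) was 1866 bp long, and its midpoint lay at -674.5 bp from the start. Its median summit lay at -679.5 bp, so its level may not be that of the Rpl7 start itself. The midpoint also lay within 1 kb of the start of Rdh10, a retinol dehydrogenase gene. No list placed Rpl7 above 45.0. Rpl34-ps1 ranged from 1.8 in Aged Bleo 5 to 62.0 in Young Bleo 3.

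**Figure D1:**
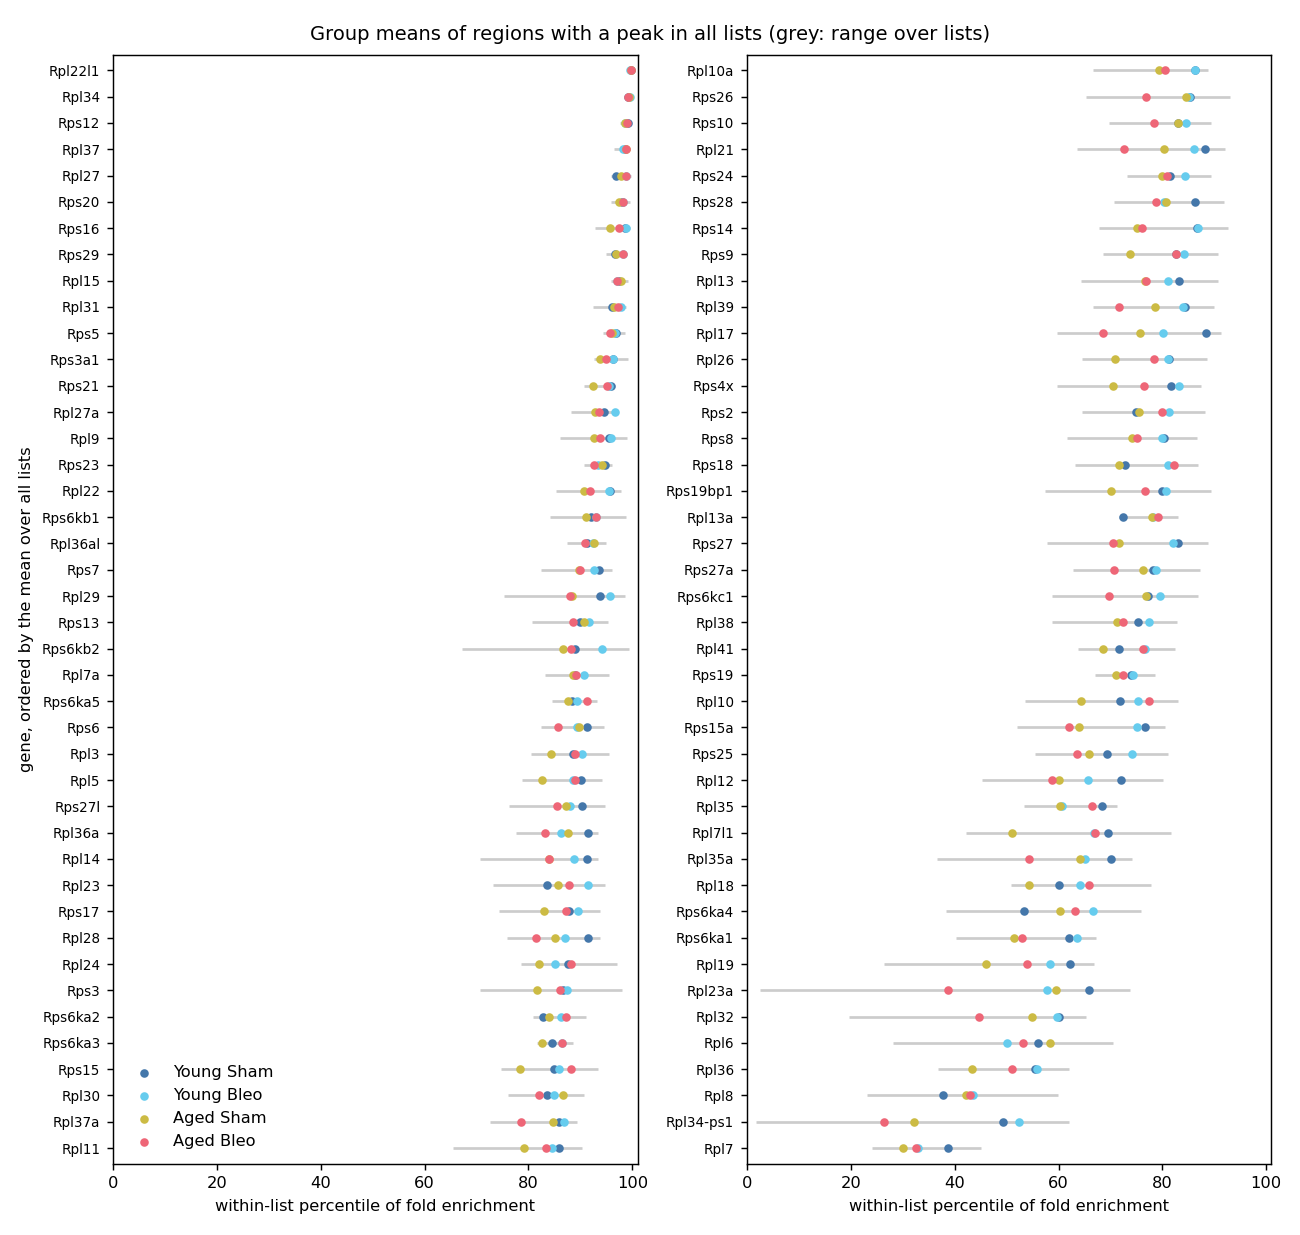
Mean within-list percentile of fold enrichment (x axis, 0 to 100) of 84 of the regions with a peak in all 18 lists, in order of their mean over all lists from Rpl22l1 to Rpl7. Coloured points are group means (n = 4 or 5 lists) and grey lines the range over the lists; the upper regions are tight, with an SD of 0.178 for Rpl22l1, and the lower ones spread, with an SD of 16 for Rpl34-ps1.

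The spread followed the level, in the members as in other promoters. Members with a mean percentile of 90 or more (22 regions) had a median SD over lists of 1.64, compared with 2.17 for 2584 regions near an NM start at that level. Between 80 and 90 the median SDs were 4.87 and 4.31, between 60 and 80 they were 6.76 and 6.43, and below 60 they were 9.84 and 9.95. Over the pooled lists the members were thus about as variable as other promoters of like level. These SDs span all 4 groups, so they hold differences of age, treatment and lane as well as those between mice.

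The subunits had medians close to each other. The median of the mean percentiles was 83.3 for 42 regions of the large subunit and 82.4 for 30 of the small subunit, with 87.8 for 5 paralogues and 85.1 for 9 genes that encode no ribosomal protein. The 5 X-linked regions had a median of 79.4 and the 81 autosomal ones of 83.4. Of the 86 regions 14 also lay within reach of the start of another gene and had a median of 76.9, compared with 84.0 for the 72 that did not. Examples of such shared promoters are Rpl15 with Nkiras1 at 97.3, Rpl9 with Lias at 94.4, Rps28 with Ndufa7 at 81.6 and Rpl12 with Lrsam1 at 64.3, and signal there cannot be assigned to one gene.

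The genes named as S6 kinases were caught by the pattern because their symbols begin with Rps6k. Some of their products are known to act on the ribosomal protein Rps6, and the name does not show this for each of them. Rps6kb1, which encodes the mTOR-dependent kinase S6K1, stood at 92.3 ± 3.34 and Rps6kb2 at 89.4 ± 7.81. Among the RSK genes, Rps6ka2 stood at 85.1 ± 2.71, Rps6ka3 at 85.1 ± 2.36 and Rps6ka1 at 57.5 ± 8.29. The MSK kinase genes Rps6ka5 and Rps6ka4 stood at 89.3 ± 2.16 and 60.6 ± 10.7. Rps6kc1 had 75.6 ± 6.75 and Rps19bp1, which encodes a partner of Rps19, 77.0 ± 8.01. Where they had a peak, Rps6kl1 stood at 41.3 ± 13.3 and Rps6ka6 at 28 ± 9.85 (n = 14 lists each). These kinases thus covered most of the range of the ribosomal proteins themselves.

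The summits sat just upstream of the start. The median position of the summit over lists was -35.8 bp from the start for the median member (quartiles -76.5 and 1.25 bp), and it lay within 100 bp of the start in 68 of 86 members (79.1%), compared with 67.7% of the regions near an NM start. The SD of a summit over lists had a median of 22.8 bp, compared with 24.9 bp for regions near an NM start. Rps12 had an SD of 2.6 bp around a summit at -79 bp, and Rps23 an SD of 3.91 bp around one at -21 bp. Among regions found in all lists the widest spreads were those of the 1866 bp region of Rpl7, with an SD of 389 bp, of Rps25 with 134 bp and of Rps19 with 105 bp. By group the median summit lay at -37 bp in Young Sham, -36 bp in Young Bleo, -39.2 bp in Aged Sham and -32 bp in Aged Bleo.

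Ribosomal protein genes that the pattern misses had regions in all 18 lists as well. Rpsa stood at 98.5, Rplp0 at 93.8, Rplp1 at 88.0, Fau at 81.2 and Rplp2 at 67.0. For the 78 mitochondrial ribosomal protein genes, all 78 had a region, 75 regions were in all lists, and their median percentile was 79.4. The 15 translation factor genes with oligopyrimidine messengers had a median of 85.0 and the 16 ribosome biogenesis genes of 88.7. Promoters of the translation machinery thus spanned medians of 79.4 to 88.7, with the members at 83.3. By percentile in Aged Bleo vs Young Sham, limma called 2 of 75 mitochondrial ribosomal protein regions higher and 5 lower, 2 of 16 translation factor regions higher and none lower, and 2 of 16 ribosome biogenesis regions higher and 2 lower, where 1.33% of all regions were called higher and 6.4% lower. By width 19 of 75, 2 of 16 and 3 of 16 were called narrower, each a smaller share than the 29.2% of all regions.

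The endothelial identity of the sorted cells was checked on marker genes. All 9 endothelial markers had a region near their start, in all 18 lists for Cdh5, Kdr, Tie1, Erg, Cldn5 and Egfl7, 17 for Pecam1, 15 for Tek and 7 for Emcn, with a median percentile of 40.1 over the regions found in all lists. None of 6 leukocyte markers had one, Ptprc included, while among 6 epithelial markers Epcam had a peak in 9 lists (mean percentile 13.8) and Foxj1 in 18 (71.4), and among 6 fibroblast and mural markers Pdgfra in 18 (44.7). Sftpc, Cdh1, Col1a1 and Acta2 had none. The lists held 21050 to 40883 peaks, fewest in Aged Bleo 4. Per-list medians over members were 57 to 147 fragments at the summit.

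**Figure D2:**
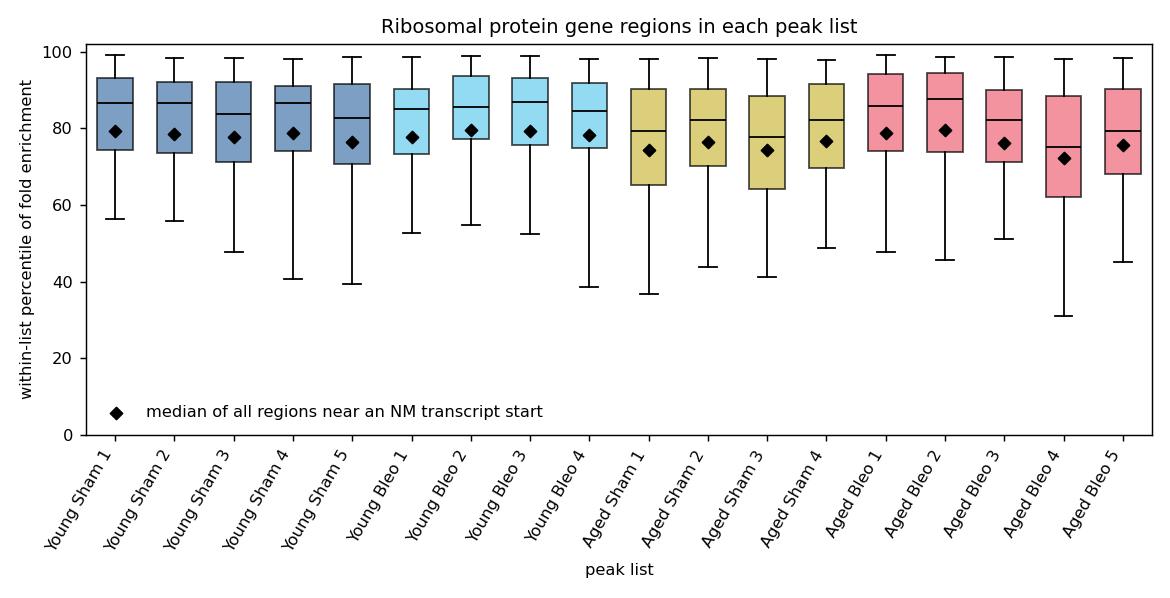
Within-list percentile of fold enrichment (y axis) of the ribosomal protein gene regions in each of the 18 peak lists (x axis), coloured by group; boxes span the quartiles, lines are medians and whiskers run from the 5th to the 95th percentile of the members. Black diamonds are medians of all regions near an NM start, below the member median in every list; member medians run from 75.1 in Aged Bleo 4 to 87.6 in Aged Bleo 2.

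In every list the median member lay above the median of all promoters, by 2.91 percentile points in Aged Bleo 4 and by up to 8.1 in Aged Bleo 2. In Young Sham the medians of the members were 86.6, 86.6, 83.7, 86.5 and 82.8 for lists 1 to 5, a mean of 85.2 ± 1.83 (SD, n = 5). In Young Bleo they were 85.1, 85.6, 86.8 and 84.5 (85.5 ± 0.986, n = 4). The young groups overlapped, with Young Bleo 3 above and Young Sham 3 and 5 below all lists of the other group.

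In Aged Sham the medians were 79.4, 82.2, 77.7 and 82.1 (80.3 ± 2.18, n = 4), all below the lowest Young Sham list. In Aged Bleo they were 85.8, 87.6, 82.1, 75.1 and 79.3 (82.0 ± 5.02, n = 5) and spanned the whole range of the young lists. The medians over all regions near an NM start moved alongside, at 78.1 ± 1.05 in Young Sham, 78.7 ± 0.892 in Young Bleo, 75.4 ± 1.32 in Aged Sham and 76.5 ± 2.92 in Aged Bleo. No test was made of these scores.

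The order of these group values also followed the length of the lists. Mean peak numbers were 35239 ± 3500 in Young Sham, 36699 ± 3079 in Young Bleo, 28882 ± 3383 in Aged Sham and 31093 ± 8076 in Aged Bleo, and the median fragments at member summits were 122 ± 19.9, 118 ± 11.4, 84.4 ± 14.8 and 92.1 ± 31.5. When each list was reduced to 21050 peaks, the member medians were 76.1, 75.2, 74.1 and 75.4. When members were ranked only among the regions shared by all lists, they were 71.7, 70.1, 69.0 and 70.2. Sequencing lane, read from the file names, was tied to group: all Young Sham lists ran on lane 8, and no lane held both aged and Young Sham lists, so lane and age cannot be told apart in any comparison of aged with Young Sham mice. Within lane 6 the Aged Bleo lists had a mean of 82.0 and the single Aged Sham list 82.1, within lane 7 the 3 Aged Sham lists had 79.8 and the 3 Young Bleo lists 85.8, and within lane 8 the single Young Bleo list had 84.5, inside the Young Sham range of 82.8 to 86.6.

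The percentiles of the 86 members were then compared between groups region by region, with limma on all 17432 regions found in every list. At a limma adjusted p of at most 0.05, 0 of 86 members were called in Aged Sham vs Young Sham (1.21% of all regions were called), in Young Bleo vs Young Sham (0.447% called) or in Aged Bleo vs Aged Sham (1.33% called). At an unadjusted limma p under 0.05 the members numbered 22, 7 and 18 of 86 (25.6%, 8.14% and 20.9%), compared with 19.2%, 10.5% and 14.9% of all regions. The interaction of age and bleomycin, which asks whether the response to bleomycin differed between young and aged mice, called 0 of 86 members and 0.00574% of all regions. At an unadjusted limma p under 0.05 it took 4 of 86 members (4.65%), compared with 6.81% of all regions.

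In Aged Bleo vs Young Sham, 9 of 86 members were called (10.5%), where 7.73% of all 17432 regions were called, and 6.94% of those near an NM start. Of these 9 members 2 were higher in Aged Bleo (1.33% of all regions were) and 7 were lower (6.4% of all regions were). The groups did not overlap in 5 of the 9 (55.6%), compared with 880 of all 1347 called regions (65.3%), or 5.05% of those tested. The median difference over the 86 members was -1.69 percentile points, compared with -1.86 over regions near an NM start and -3.25 over all regions, and turned to 0.379 for members and 0.343 for all regions when only shared regions were ranked. The group medians given above were lower in Aged Bleo than in Young Sham on both scales. With the sequencing lane as a term 0 of 86 members and 0 of 17432 regions were called, while the median difference was -5.19 percentile points over members and -6.73 over all regions; lane and group nearly coincide.

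Rpl17, a large subunit protein at the rim of the exit tunnel, had the smallest p. Its percentiles were 87.5, 91.2, 87.8, 89 and 86.2 in Young Sham and 77.1, 77.7, 64.0, 64.3 and 59.8 in Aged Bleo, with 77.1, 82.3, 76.4 and 84.7 in Young Bleo and 65.6, 73.5, 83.7 and 79.5 in Aged Sham. Every Aged Bleo list lay below every Young Sham list, and so did every list of the other 2 groups. The difference was -19.8 ± 3.74 percentile points (SE, limma adjusted p = 0.00815).

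Rps15a, a protein of the small subunit, had percentiles of 76.6, 79.9, 76.7, 74.6 and 75.3 in Young Sham and of 66.1, 68.3, 63.9, 52.0 and 60 in Aged Bleo. Its Young Bleo lists stood at 70.6, 73.6, 80.5 and 75.6 and its Aged Sham lists at 56.5, 70.0, 63.2 and 66.2. Here both aged groups lay below all Young Sham lists. The limma difference between Aged Bleo and Young Sham was -14.6 ± 3.02 (adjusted p = 0.0115).

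Rpl28 of the large subunit stood at 91.8, 89.9, 90.5, 91.0 and 93.7 in Young Sham and at 86.6, 88.7, 79.8, 76.3 and 75.8 in Aged Bleo, and the groups did not overlap. Young Bleo had 85.2, 86.1, 87.1 and 89.5 and Aged Sham 84.8, 84.8, 85.7 and 85.4, each below the lowest Young Sham list too. The difference was -9.96 ± 2.19 (limma adjusted p = 0.0149). Its promoter, printed above, holds a pyrimidine run but no CCGGAAG within the 300 bases.

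The other 4 lower regions complete the 7, and in each the lowest Young Sham list lay below the highest Aged Bleo list. Rpl21 fell by 15.5 (88.2 ± 4.69 to 72.7 ± 7.11, limma adjusted p = 0.0203), Rpl36a by 8.3 (91.4 ± 2.11 to 83.1 ± 4.39, limma adjusted p = 0.031) and Rpl39, which lies in the exit tunnel, by 12.8 (84.4 ± 4.09 to 71.6 ± 5.8, limma adjusted p = 0.0326). Rpl23a, near the tunnel exit where nascent chains meet the signal recognition particle, fell by 27.2 (65.9 ± 7.64 to 38.7 ± 21.2, limma adjusted p = 0.0422). Its Aged Bleo lists stood at 47.7, 49.9, 38.3, 2.46 and 55.1, so that Aged Bleo 4 stood apart. Rpl36a and Rpl39 are X-linked. The mice were of both sexes, which the labels do not tell apart.

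The 2 higher regions were those of Rpl13a and Rps18. Rpl13a, a large subunit protein that also takes part in silencing of inflammatory messenger RNAs, had 73.5, 71.7, 72.7, 71.6 and 72.8 in Young Sham and 79.7, 76.0, 78.2, 83.0 and 78.4 in Aged Bleo. Its Young Bleo lists stood at 76.5, 80, 77.6 and 78.5 and its Aged Sham lists at 80.4, 73.1, 77.7 and 81.2, so that the narrow Young Sham group lay below all lists of the other groups except Aged Sham 2. The difference was 6.6 ± 1.61 (limma adjusted p = 0.0243).

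Rps18, a protein of the head of the small subunit whose region is shared with the start of Vps52, had 74.3, 77.5, 63.1, 74.6 and 74.9 in Young Sham and 81.8, 83.5, 83.6, 83.4 and 79.3 in Aged Bleo. Young Bleo stood at 86.9, 79.0, 81.2 and 76.8 and Aged Sham at 66.4, 77.1, 74.2 and 68.5. All Aged Bleo lists lay above all Young Sham and all Aged Sham lists. The limma difference between Aged Bleo and Young Sham was 9.44 ± 2.75 (adjusted p = 0.048), and without Young Sham 3 it was 6.99 with an adjusted p of 0.0979. On the logit of the percentile, a scale added after the data had been seen, limma called neither Rpl13a (adjusted p = 0.0841) nor Rps18 (adjusted p = 0.0589).

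**Figure D3:**
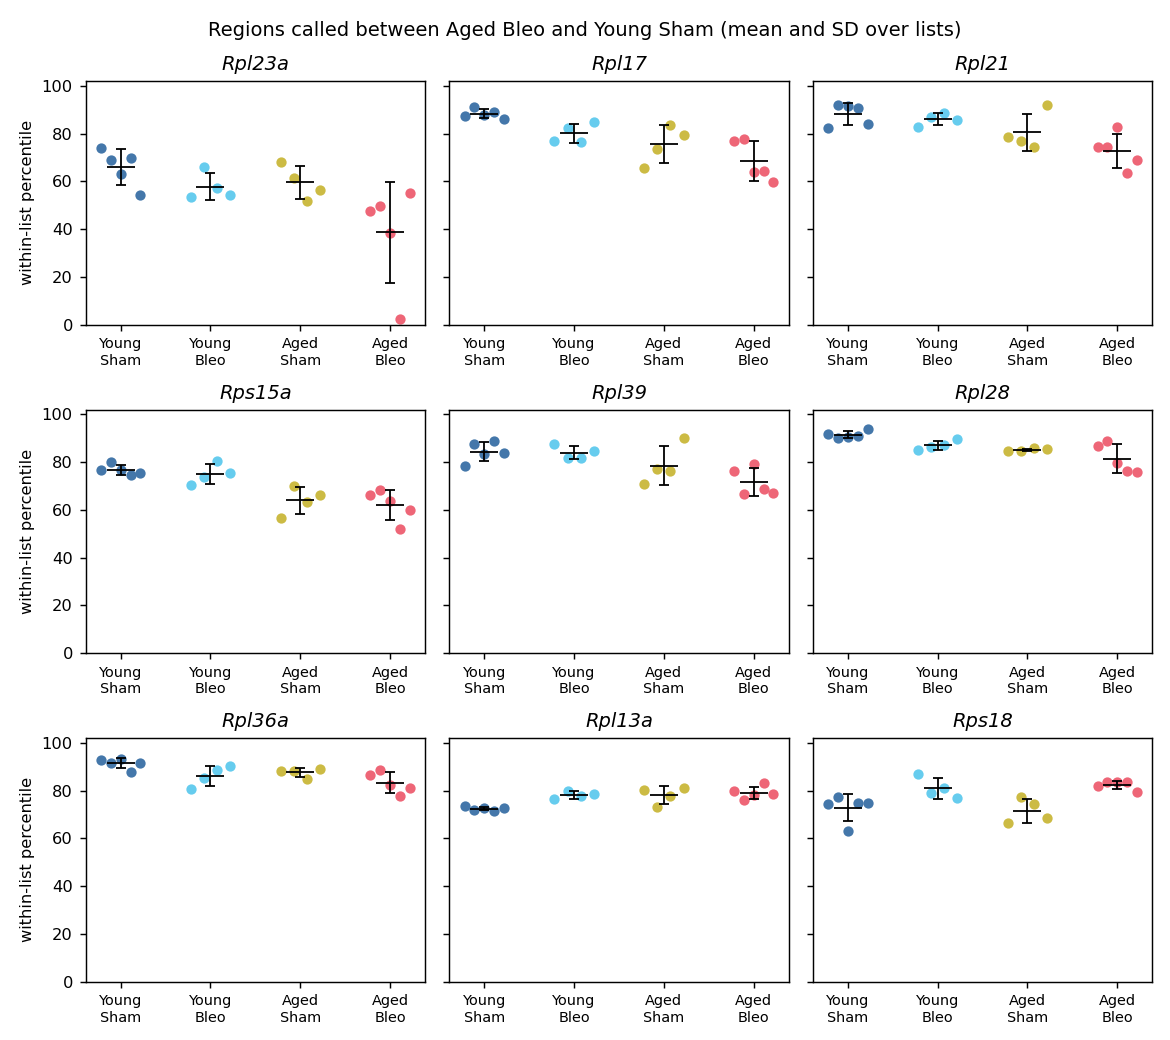
Within-list percentile of fold enrichment (y axis) for the 9 regions called between Aged Bleo and Young Sham, by group (x axis), ordered by the size of the difference; points are lists, black bars the mean and SD. In Rpl17, Rps15a and Rpl28 every Aged Bleo point lies below every Young Sham point, in Rpl13a and Rps18 every one lies above, and in Rpl23a 1 list at 2.46 lies far below the others.

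Of the 9 called regions 7 belong to the large and 2 to the small subunit, and none of the 9 kinases or partners and none of the 5 paralogues tested was among them. The call was not stable in number when lists were left out: it was 16 without Aged Bleo 2 (12.4% of all regions were then called), 5 without Aged Bleo 4 (4.72%), 3 without Young Sham 2 (3.16%), 4 without Young Sham 3 (4.24%) and 4 without Young Sham 4 (3.42%). The share of all regions called thus moved in the same direction each time. Rpl17, Rps15a and Rpl28 stayed called whichever list was left out, with limma adjusted p of at most 0.0265, 0.0367 and 0.037. Rpl21 lost its call without Young Sham 2, 3 or 4 (limma adjusted p up to 0.057), Rpl13a without Young Sham 2, Young Sham 4 or Aged Bleo 4 (up to 0.0627), Rpl39 without Young Sham 2, 3 or 4 or Aged Bleo 4 or 5 (up to 0.0842) and Rpl36a without Young Sham 1, 2 or 3 or Aged Bleo 3, 4 or 5 (up to 0.0746). Rpl23a lost it without any of 10 lists (up to 0.0951 without Young Sham 1) and Rps18 without any of 15 (up to 0.0979 without Young Sham 3). Among the other alternatives run for each region, the call was lost in 1 of 9 for Rpl17, Rps15a, Rpl28 and Rpl21. Losses numbered 4 of 9 for Rpl13a and for Rps18, 4 of 8 for Rpl39, 3 of 8 for Rpl23a and 2 of 8 for Rpl36a.

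Widths, that is the bases of a region under peaks of a list, told of a narrowing that was general. The median member was 574, 646, 618, 622 and 556 bp wide in the Young Sham lists (603 ± 37, SD, n = 5) and 587, 609, 615 and 635 bp in Young Bleo (612 ± 19.8, n = 4). In Aged Sham it was 548, 557, 552 and 626 bp (570 ± 36.9, n = 4) and in Aged Bleo 603, 549, 538, 474 and 502 bp (533 ± 48.9, n = 5). All groups overlapped with Young Sham. Over all regions near an NM start the group means of the list medians were 587 ± 33.9, 594 ± 9.38, 558 ± 41.3 and 524 ± 38.6 bp.

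Called by limma on log2 width, 20 of 86 members (23.3%) were narrower in Aged Bleo than in Young Sham, and none was wider, where 29.2% of all regions were called and 29.2% were called narrower. In the other comparisons 0 of 86 members were called by width. All regions were called at 0.00574% in Aged Sham vs Young Sham, 0.0115% in Young Bleo vs Young Sham and 0.0172% in Aged Bleo vs Aged Sham, and at an unadjusted limma p under 0.05 the members numbered 15, 4 and 10 (17.4%, 4.65% and 11.6%), compared with 13%, 5.4% and 14.9% of all regions. The median member was 0.896 times as wide in Aged Bleo as in Young Sham and the median of all regions 0.862 times. The share of members called was thus below the background of all regions and next to that of regions near an NM start (23.4%). With lane as a term 0 members were called, while the median log2 difference in width was -0.266 over members, compared with -0.159 without it. The fragments at member summits were lower in Aged Bleo 3, 4 and 5 (76.5, 57 and 76) than in Aged Bleo 1 and 2 (125 and 126). The widths followed them only in part, as Aged Bleo 2 was 549 bp wide and Aged Bleo 3 538 bp. The part of the fragments in the widths was not tested.

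The clearest narrowing was at Rps4x, an X-linked small subunit gene. Its width was 640, 679, 732, 749 and 699 bp in Young Sham and 460, 310, 414, 316 and 419 bp in Aged Bleo, with 628, 596, 469 and 635 bp in Young Bleo and 666, 434, 657 and 597 bp in Aged Sham. No Aged Bleo list reached the narrowest Young Sham list. The fold was 0.542 (log2 -0.883 ± 0.132, limma adjusted p = 0.00188), while its percentile was 81.7 ± 4.22 in Young Sham and 76.4 ± 9.96 in Aged Bleo.

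Rps9, a small subunit protein involved in decoding accuracy, was 797, 810, 811, 744 and 912 bp wide in Young Sham and 680, 624, 645, 579 and 599 bp in Aged Bleo. These groups did not overlap, and the fold was 0.768 (log2 -0.381 ± 0.0835, limma adjusted p = 0.00766). Rps6ka1, the gene of the kinase RSK1, was 962, 1115, 1086, 1051 and 928 bp wide in Young Sham and 747, 970, 776, 656 and 589 bp in Aged Bleo, with an overlap through Aged Bleo 2. Its fold was 0.718 (log2 -0.477 ± 0.117, limma adjusted p = 0.012). In all, 7 of the 20 called members had no overlap between the groups (35%), compared with 2139 of all 5095 regions called by width (42.0%), or 12.3% of those tested.

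Among the remaining 17 were Rps25 (933 ± 20 to 828 ± 37.5 bp), Rps24 (583 ± 67.4 to 459 ± 50.5 bp) and Rps19, the gene most often mutated in Diamond-Blackfan anaemia (924 ± 12.6 to 840 ± 48.3 bp). By class the 20 were 9 of 42 of the large subunit, 9 of 30 of the small subunit, 1 of 5 paralogues (Rpl7l1) and 1 of 9 kinases and partners. Rpl36a was the only member called by both percentile and width. The count of 20 became 35 without Aged Bleo 1 (42.9% of all regions were then called), 6 without Aged Bleo 4 (13.3%), 7 without Aged Bleo 5 (15.2%), 8 without Young Sham 2 (12%), 6 without Young Sham 3 (13.8%) and 5 without Young Sham 4 (13.6%), and so moved along with all regions. Rps4x, Rps9 and Rps6ka1 stayed called whichever list was left out, and lost their calls with lane as a term (log2 -0.756, -0.49 and -0.102, limma adjusted p = 0.257, 0.195 and 0.808).

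The widest member was the shared region of Rpl7 with Rdh10, at 1798 ± 54.8 bp (n = 18), followed by the kinase genes Rps6ka2 at 1020 ± 61.4 bp and Rps6ka5 at 957 ± 33.8 bp. The narrowest of those found in all lists were Rpl34-ps1 at 341 ± 68.4 bp, Rpl6 at 374 ± 71.0 bp and Rpl8 at 377 ± 96.2 bp. Among the regions found in all lists, Rpl7 was both the widest and the lowest on the percentile scale. Rps6ka2 and Rps6ka5, next in width, stood at 85.1 and 89.3.

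**Figure D4:**
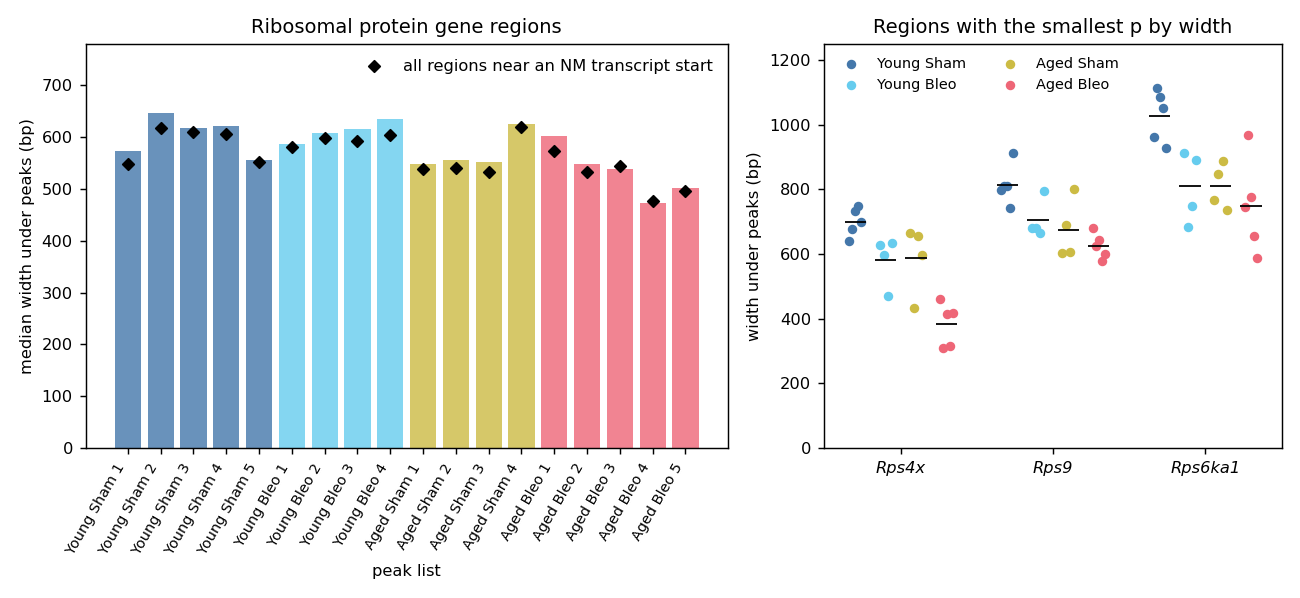
Left, median width under peaks (bp, bars from 0) of the ribosomal protein gene regions in each list, with diamonds for all regions near an NM start; it runs from 474 bp in Aged Bleo 4 to 646 bp in Young Sham 2. Right, widths in each list of the 3 regions with the smallest p in Aged Bleo vs Young Sham, with bars for group means, such as 700 bp in Young Sham and 384 bp in Aged Bleo for Rps4x.

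Local background differed widely between members, at high and at low percentiles. Rps6ka5, at a percentile of 89.3, had the highest background with 29.8 fragments and Rpl37, at 98.5, had 20.2, while the low Rpl34-ps1 and Rpl8 had 1.57 and 3.35. The deposited fold enrichment is a ratio of fragments at the summit to a background. It was solved together with the deposited p over whole numbers of fragments only. A single match within the tolerance of 0.001 was found for 1593 of 1593 member peaks. Rps19 had a median of 336 fragments over a background of 21.2, Rpl13a (chr7:45128585-45129289) 294 over 19.1 and Rpl7 110 over 14.5.

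When the p column was ranked in place of fold enrichment, some members of high background rose in the order. Rpl7 went from a mean percentile of 33.7 to 71.1, Rps19 from 72.9 to 94.8, Rpl36 from 51.6 to 71.5 and Rpl13a from 76.8 to 95.4. Others went down, such as Rps6kb2 from 89.4 to 79.3 and Rpl36a from 87.1 to 77.8, which had backgrounds of 2.89 and 2.64 fragments. Ranked this way, 18 members were called in Aged Bleo vs Young Sham (1 higher, 17 lower; 19.5% of all regions), 8 of them among the 9 above and with Rpl13a at a limma adjusted p of 0.0721. This ranking was added after the data had been seen.

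**Figure D5:**
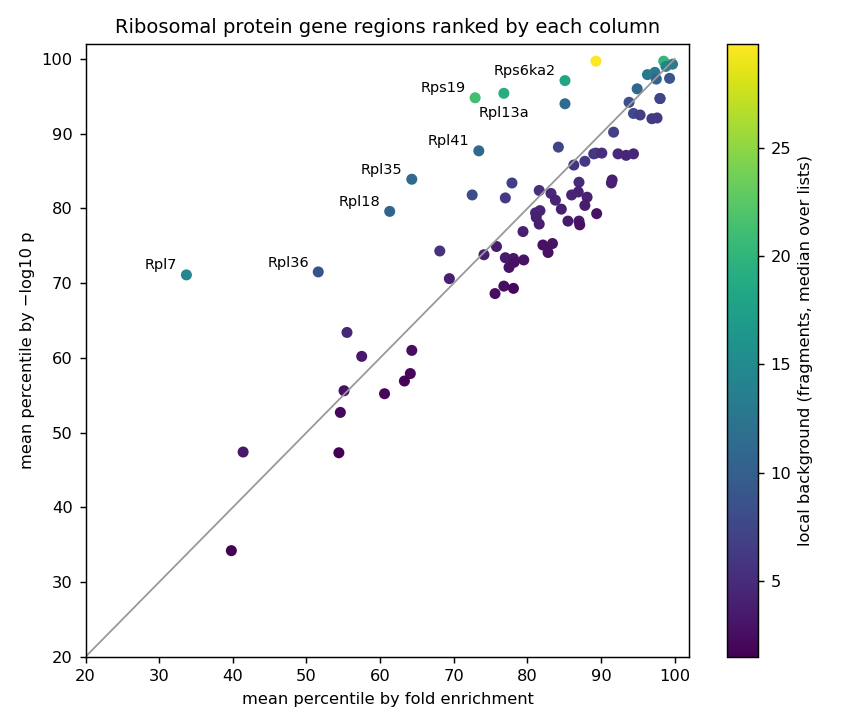
Mean percentile over 18 lists by fold enrichment (x axis) and by −log10 p (y axis) for 84 of the regions found in all lists, coloured by the median local background in fragments; the grey line marks equal percentiles. Labelled are the 8 of these that rose most, led by Rpl7 (33.7 to 71.1) and Rps19 (72.9 to 94.8).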

How the data were processed

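ATAC-seq peak lists of 18 mice in 4 groups were used. Per the methods of the study, the authors aligned reads to mm10 with BWA 0.5.9, discarded duplicates (Picard MarkDuplicates 1.67) and used MACS2 2.0.10 on each library at an FDR of 1%; whether reads were shifted for the transposase is not given in the sources used here. The deposited columns hold a fold enrichment over local background (a ratio), the −log10 p-value and −log10 q-value of each peak, a score and the summit offset. No read counts were used, since the deposited files are peak lists. A fragment pileup was solved from fold enrichment and p (tolerance 0.001), which gives the depth at each summit. Library totals were not used here.

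Autosomal, X and Y peaks were merged, leaving out 19 peaks that lay on none of these chromosomes. For each region and list the presence of a peak, the highest within-list percentile of fold enrichment and the bases under peaks were taken. Starts came from the RefSeq annotation of GRCm38.p6. The members and lists of genes were chosen with earlier results of these data known. Fisher's exact test was run on presence. limma 3.58.1 in R 4.3.3 was fitted on percentiles and log2 widths with 4 group means and Benjamini-Hochberg adjustment over all regions, after the script was tested on simulated data. Python 3.11.15, pandas 2.3.3 and scipy 1.17.1 were used. p-values measure the spread between mice of these lanes.

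Genes named with values are those with no region or an incomplete one, the 5 highest and 5 lowest by mean percentile, up to 3 called per direction with the smallest p, the genes of the pattern that encode no ribosomal protein, and the 3 widest and 3 narrowest regions; other members named were chosen after their values were seen, and some genes are not reported here. Alternatives were a stricter −log10 q of 5, equal peak numbers, a 500 bp window, autosomes, other members, 1 region a gene, at least 3 lists, 50% coverage, lane, a replicate block, other rankings and each list left out.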

Additional observations from a re-analysis of the deposited data

Results flagged for a closer look

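Gaps within groups of 4 or 5 lists were compared with Dixon's critical value for 103 groups of values, of which 6 (5.83%) were past it, where chance gives about 5%. The median width of the members was 626 bp in Aged Sham 4, compared with 548 to 557 bp in the other Aged Sham lists. Young Sham 4 held 90 members, compared with 89 in each of the other Young Sham lists. Rps12 stood at a percentile of 99.4 in Aged Bleo 1 and at 98.7 to 98.9 in the other Aged Bleo lists. Rpl7 stood at 38.5 in Young Bleo 4, compared with 30.6 to 31.2 in the other Young Bleo lists, and Rps9 was 795 bp wide in Young Bleo 4, compared with 666 to 681 bp. Rps18 stood at 63.1 in Young Sham 3, compared with 74.3 to 77.5 in the other Young Sham lists. Aged Sham 4 and Young Bleo 4 are the lists of their groups that ran on another lane, and the part of lane was not tested.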

How the results depend on the processing

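With alternatives other than leaving out a list, 179 counts or group medians kept within 1.5 times the count or 1 SD of the median and 29 did not. By percentile in Aged Bleo vs Young Sham, the 9 calls became 0 with lane as a term (median difference over members -5.19, against -1.69). They became 5 with the replicate block (6.2% of all regions). On the logit scale they became 6 (all lower, where 7.76% of all regions were called, 171 higher and 1181 lower). Ranking by −log10 p gave 18 (19.5% of all regions), with 9 in Aged Sham vs Young Sham and 3 in Aged Bleo vs Aged Sham. Ranking among shared regions gave 13 (6 higher, 7 lower, against 2 and 7). By that ranking 10.6% of all regions were called, 1002 higher and 838 lower. It gave 1 call in Young Bleo vs Young Sham, as did equal peak numbers. The share of all regions is not given for these 9, 3 and 1 calls, so they are not read as a result about the members. By width the 20 calls became 0 with lane as a term (median log2 difference -0.266, against -0.159; 1 of 17432 regions) and 16 with the replicate block (22.1% of all regions). The call of Rps6ka6 by presence was gone (0) in both comparisons on autosomes, as it is then no member. The same held without genes that encode no ribosomal protein and for canonical genes. Its own call was lost against Young Sham with equal peak numbers (exact p = 1) and against Aged Sham at 50% coverage (exact p = 0.444). With at least 50% of a region covered, presence gave 3 calls in Aged Bleo vs Young Sham and 0 in Aged Bleo vs Aged Sham. In Young Bleo vs Young Sham it gave 1, as did equal peak numbers. The share of all regions is not given for these counts by presence, so they are not read as a result about the members.

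Group medians (Young Sham and Young Bleo, then Aged Sham and Aged Bleo) became 76.1, 75.2, 74.1 and 75.4 with equal peak numbers and 71.7, 70.1, 69.0 and 70.2 among shared regions; by −log10 p they were 83.3, 83.5 and 78.0 in the first 3. With each list left out in turn, calls in Aged Bleo vs Young Sham ran from 3 to 16 by percentile, 5 to 35 by width and 1 to 2 by presence, and in Aged Bleo vs Aged Sham from 0 to 1 for each measure; in Aged Sham vs Young Sham they ran from 0 to 3 by percentile and 0 to 1 by width. A first call arose in Aged Sham vs Young Sham by percentile without Young Sham 5 (1, with 1.38% of all regions called) or Aged Sham 2 (1, with 1.01%). It also arose without Aged Sham 4 (2, with 2.62%) or Aged Bleo 4 (3, with 5.25%), and by width without Aged Sham 4 (1, with 1.25%). In Aged Bleo vs Aged Sham 1 was called by percentile without Young Sham 3 (0.94% of all regions), Aged Sham 4 (1.66%) or Aged Bleo 4 (1.97%). By width 1 was called there without Aged Bleo 1 (0.481%). As shares of the 86 members, 1, 2 and 3 are 1.16%, 2.33% and 3.49%. Presence gave 2 in Aged Bleo vs Young Sham without Aged Bleo 1 or 2, for which the share of all regions is not given either. None of the 9 regions called by percentile, of Rps4x, Rps9 and Rps6ka1 by width, or of Rps6ka6 by presence changed direction in the alternatives run for it; other width calls were not followed singly. The replicate numbers do not pair the lists: deviations of lists with the same number had correlations of -0.258 to 0.359, 7 of 25 above 0.1, and 4 of 18 lists correlated best with their own number. The cause of these shifts was not tested. A median of 14.5 to 20 fragments stood at the summits of Rpl4, Rps6ka6 and Rps6kl1, and the part of this depth in their absences was not tested.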
